A study of Mus musculus with 23 samples.

Results

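Expression of cadherin genes was compared between whole brains of adult male mice whose recipient mothers had eaten different diets around pregnancy. The genes were chosen by symbol: every probe on the array named Cdh or Pcdh with a number, or Celsr with a number, was taken. This gave 60 probes for 41 genes, of 39429 probes for 31829 gene names in all. Cdh19 was the reason for choosing the family, because of its level in PR and CD brains, so its values are a description without a test, and the other 59 probes were set against it and tested.

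All mice were C57BL/6J males at 19 weeks of age, born after in vitro fertilization and transfer of the embryos to ICR recipients. They were delivered by cesarean section, and the paper states that brains were taken after behavioral tests. The tests of the study included fear conditioning with foot shocks and tail suspension. There were 12 arrays, 4 mice for each maternal diet. The CD group came from recipients on the control diet (AIN93G, 20% casein and 0.02% folic acid), the PR group from recipients on the protein-restricted diet (5% casein, 0.02% folic acid), and the FA group from recipients on the same low-protein diet with more folic acid (0.1%). Recipients ate these diets from a month before transfer to delivery, and all progenies ate the control diet after weaning. The sources differ on what the foster mothers ate. Whether mice of a group were littermates is not stated, and each diet was on a slide of its own, so a difference between diets and one between slides cannot be told apart.

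Values are log2 intensities after the normalization that the authors deposited, and differences are on the same log2 scale. A rise or fall was called at an adjusted p under 0.05 (limma, Benjamini-Hochberg over all 39429 probes). The CD arrays were dimmer than the others, with 27068 to 28458 probe spots well above background, against 31266 to 33478 on PR arrays and 30408 to 31672 on FA arrays. All 5 neuronal, 11 oligodendrocyte, 10 astrocyte and 8 microglial marker probes were well above background on every array. In PR, 1 neuronal probe was called higher and 1 lower, 4 and 1 of oligodendrocytes, 2 and 2 of astrocytes and 2 and 2 of microglia, and in FA it was 1 and 0, 2 and 1, 2 and 3, and 2 and 2. Of all probes on the array, 13.4% were called higher and 16.6% lower in PR, and 16.4% and 18% in FA. Marker counts here and below are to be read beside these shares. Of 7 pituitary probes, 2 were lower in both PR and FA. Growth hormone Gh was 7.73 to 8.37 on CD arrays and not well above background on any PR array, where it was at least 19.8-fold lower (limma adjusted p = 5.5e-04), and prolactin Prl was at least 18.7-fold lower (0.00562). These limits set the CD mean against, on each PR array, the higher of the probe's own value and the lowest signal well above background. In FA both were called lower (limma adjusted p = 0.00105 and 0.00664), with 1 of 4 FA arrays well above background, so no fold is given. The log2 of the summed intensities of the pituitary list was 11.00 to 11.06 in CD, 10.03 to 10.30 in PR and 9.43 to 10.64 in FA. The part of these differences in the results given here was not tested. As this is whole brain, fewer cells of a type and less RNA per cell cannot be told apart.

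Cadherins are calcium-dependent adhesion molecules. Classical cadherins, divided into type I and type II by their adhesive domain, hold neighbouring cells together and are anchored by catenins to the actin cytoskeleton. Unclustered protocadherins are related adhesion molecules with distinct cytoplasmic tails that are expressed in restricted sets of neurons, and Celsr genes encode large cadherins with a receptor-like membrane part that act in planar cell polarity. Cdh19 is a type II cadherin best known from the neural crest and the Schwann cell lineage.

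Of the 60 probes, 44 were well above background on all 12 arrays, 10 on some arrays and 6 on none. The 6 were the probes of Cdh16, Cdh17, Cdh23 and Cdh24 and 2 of the probes of Pcdh15. By gene, 35 of 41 had at least 1 probe well above background on every array. Cdh7 and Cdh20, both type II, lie on chromosome 1 with Cdh19. The probe starts of Cdh19 and Cdh7 are 750528 bases apart, and those of Cdh7 and Cdh20 are 5144195 bases apart (mm9). The first 30 of the 60 bases of each of these probes are shown 5′ to 3′ to let a reader see what was hybridized at Cdh19 and at its relatives. The Cdh19 probe is chr1:112785846-112785905 on the minus strand, that of Cdh7 is chr1:112035318-112035377 on the plus strand and that of Cdh20 is chr1:106891123-106891182 on the plus strand. The files do not state the exon or untranslated region of a probe.
Cdh19: ctgtgcagagatcaatttttaacaacaagg
Cdh7: cacctggatctaactttcatggtaccctct
Cdh20: gactaagctaaataatcagaaggaaaccca
The Cdh19 probe shared no run longer than 8 bases with the other 59 probes of the family and no run longer than 14 bases with any of the other 39428 probes on the array.

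Cdh19 was higher in the PR and FA brains than in the CD brains. Its 4 CD values were 5.60, 5.22, 5.83 and 5.93, its PR values 6.86, 6.73, 6.88 and 6.81, and its FA values 6.77, 6.26, 6.69 and 6.78. Every PR and FA array was above every CD array, and the CD array with the lowest value was the only array of the 12 on which the probe was not well above background. The CD values were dim, near the lowest signals well above background on the CD arrays (4.75 to 5.28), so the folds from CD rest on dim values. The mean was 5.64 ± 0.316 (SD, n = 4) in CD, 6.82 ± 0.063 in PR and 6.62 ± 0.248 in FA. This was a difference of 1.18 for PR (2.26-fold) and of 0.98 for FA (1.97-fold). PR and FA overlapped, with FA 0.20 lower on average.

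The size of the Cdh19 difference depended on the background correction. It was 1.28 for PR and 1.02 for FA when arrays were scaled to their 75th percentile, and 1.14 and 0.95 after quantile normalization. After the normexp correction, which adds an offset of 50 to each intensity and so draws low values together, it was 0.49 (1.40-fold) for PR and 0.40 (1.32-fold) for FA. PR and FA arrays were above the CD arrays under each of these normalizations. Leaving out 1 array at a time gave 1.03 to 1.27 for PR and 0.84 to 1.1 for FA. Before any normalization between arrays, the background-corrected signal of Cdh19 was 27.0 to 51.5 on CD arrays, 128 to 149 on PR arrays and 75.3 to 122 on FA arrays. On that scale the median log2 difference of all probes was also above zero, at 0.40 in PR and 0.20 in FA. Of all 39429 probes, Cdh19 had the 631st highest PR difference and the 1046th highest FA difference in the deposited values. After normexp correction it ranked 361st in PR and 939th in FA. The ranks were 535th and 868th after scaling to the 75th percentile, and 996th and 1510th after quantile normalization. As Cdh19 was chosen for its PR and CD values, its ranks only describe it and do not back the difference.

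**Figure D1:**
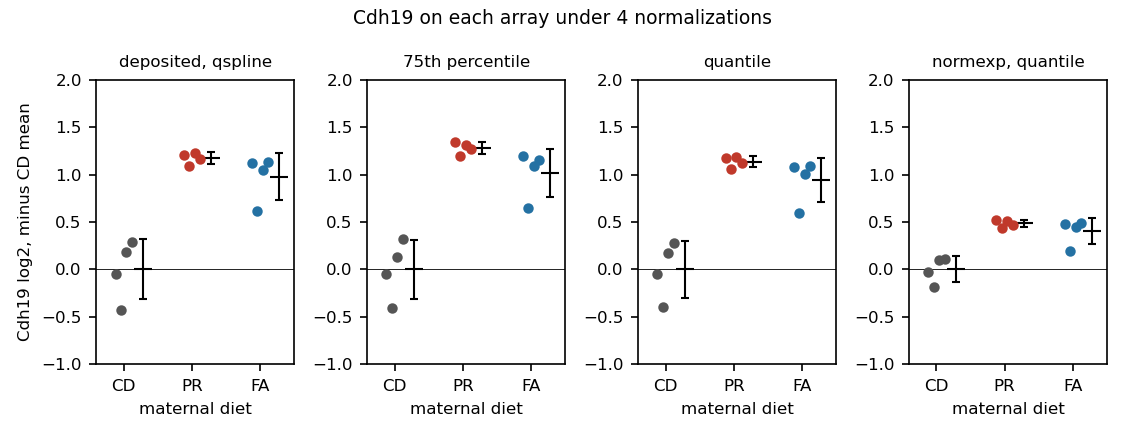
Log2 level of Cdh19 on each array minus the CD mean (vertical axis, log2 units) by maternal diet, under 4 normalizations. Points are single arrays, and the bar beside each group is the mean ± SD (n = 4). The difference between CD and the other diets is 1.18 and 0.98 in the deposited values and 0.49 and 0.40 after normexp correction.

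The nearest relatives of Cdh19 on the chromosome differed by less than the spread between arrays. Cdh7, a type II cadherin of neural tube and neurons, had CD values of 9.51, 9.30, 9.51 and 9.45, PR values of 9.39, 9.48, 9.55 and 9.58, and FA values of 9.51, 9.46, 9.49 and 9.47. The groups overlapped throughout, with differences of 0.054 ± 0.058 (SE) for PR and 0.035 ± 0.058 for FA (limma adjusted p = 0.515 and 0.679). Cdh20 had CD values of 8.29, 8.44, 8.39 and 8.51, PR values of 8.40, 8.44, 8.47 and 8.38, and FA values of 8.41, 8.42, 8.38 and 8.31. These too overlapped, with differences of 0.014 ± 0.052 and -0.027 ± 0.052 (limma adjusted p = 0.864 and 0.726).

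**Figure D2:**
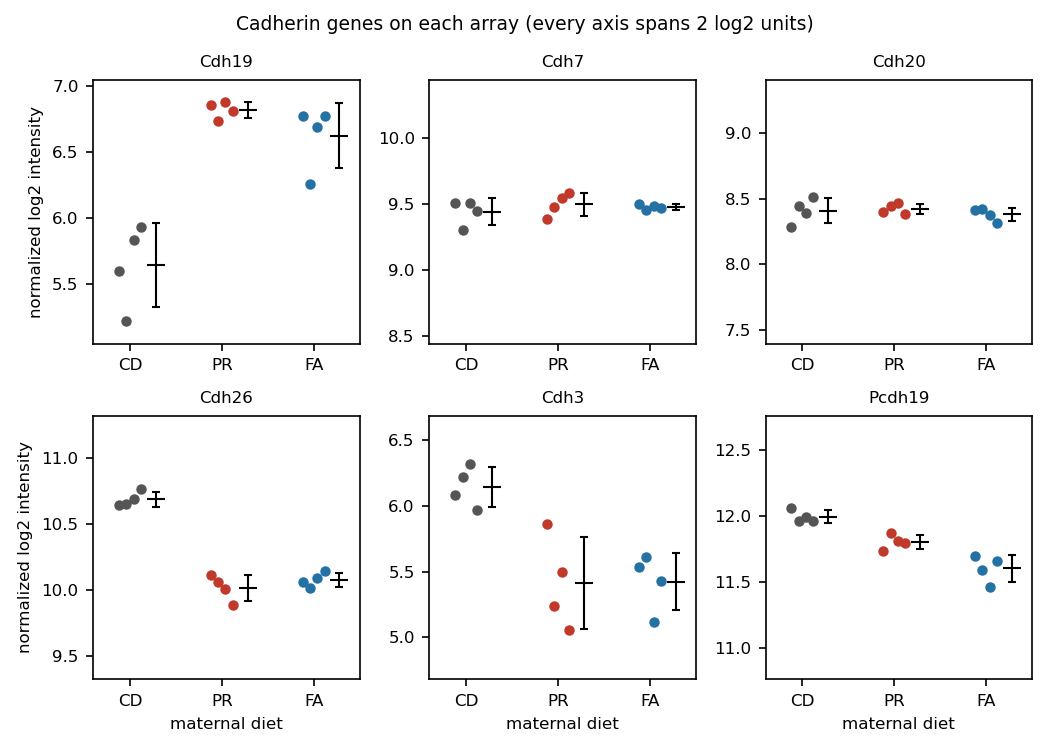
Normalized log2 intensity (vertical axes, each spanning 2 log2 units around its own gene) of 6 genes by maternal diet. Points are single arrays and bars are mean ± SD (n = 4). Cdh19 is higher in PR and FA, Cdh7 and Cdh20 overlap between diets, and Cdh26, Cdh3 and Pcdh19 are lower in PR and FA on every array.

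Genes of the Schwann cell lineage were read beside Cdh19, since the gene is known from these cells. Prx, which encodes periaxin of myelinating Schwann cells, was well above background on all 12 arrays and rose by 1.19 in PR and 0.81 in FA (limma adjusted p = 0.00973 and 0.0458), with PR values of 6.41 to 7.73, FA values of 6.18 to 6.95 and CD values of 5.41 to 5.98. These CD values are dim, near the lowest signals well above background on the CD arrays (4.75 to 5.28). The Prx differences are given in the deposited values only. Sox10, a transcription factor shared by Schwann cells and oligodendrocytes, did not pass the test, with differences of 0.071 and 0.093. Ngfr, a neurotrophin receptor, was 9.91 to 10.09 in CD, 9.71 to 9.91 in PR and 9.61 to 9.86 in FA, and fell by 0.21 in both (limma adjusted p = 0.0438 and 0.041). Of the 7 lineage probes read, 1 (Prx) was higher and 1 (Ngfr) lower in PR, and 1 (Prx) was higher and 2 (Ngfr and Erbb3) lower in FA. The log2 of the summed intensities of these probes was 12.99 to 13.06 in CD, 12.95 to 13.16 in PR and 13.01 to 13.12 in FA. This sum mostly follows its brightest probes, Sox10 and Pou3f1 (CD means 11.84 and 11.76), and Sox10 is shared with oligodendrocytes. It is therefore not a measure of Schwann cells alone. Erbb3 was not well above background on any CD or FA array, so its FA call has no usable fold, and Foxd3 and Pmp2 were not on any CD array. The part of these cells in the Cdh19 difference was not tested.

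Among the other 59 probes, 1 was higher and 12 were lower in PR than in CD, which was 1.69% and 20.3% of the probes. Of all probes on the array, 13.4% were higher and 16.6% lower. In FA against CD, 5 were higher and 17 lower (8.47% and 28.8%), against 16.4% and 18% of all probes. After normexp correction the all-probe calls changed balance, to 4691 higher and 3650 lower in PR and 6300 and 4864 in FA, from 5288 and 6532 in PR and 6449 and 7109 in FA, and the members gave 0 higher and 8 lower in PR and 2 and 13 in FA. Removing dim probes left 27489 probes to be tested. Of these, 4708 were called higher and 3775 lower in PR, and 5870 and 4545 in FA. The members then gave 1 higher and 10 lower in PR, and 4 and 17 in FA. Of the 60 probes of the family, Cdh19 included, 51 were well above background on all arrays of at least 1 group. These member counts are therefore not to be read as shares of the 59. The median difference of the 59 probes was -0.068 in PR and -0.132 in FA, where that of all probes was -0.016 and -0.006. In FA, 43 of 59 probes (72.9%) were below zero, against 50.8% of all probes, and in PR it was 33 of 59 (55.9%), against 52.3%. PR and FA were compared with the same 4 CD arrays, so the pair of counts is not independent. At the limits that the methods of the study set (an adjusted p under 0.0001 and a change of 2-fold or more), no member was called by limma in either comparison, and 0.0609% and 0.0254% of all probes were higher and lower in PR and 0.132% and 0.0634% in FA. At an unadjusted p under 0.05, 23 of the 59 passed in PR (39%, against 41.1% of all probes) and 24 in FA (40.7%, against 44.4%).

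These counts changed when single arrays were left out. The calls over all probes in these smaller fits are not given here, so the changes are not to be read as particular to the members. The 12 lower calls in PR fell to 7 without CD array 1 or without PR array 4, and the 17 in FA to 11 without CD array 1 or without FA array 1. The single higher call in PR, at Pcdh7 probe 3, was lost without CD array 2, CD array 4, PR array 1 or PR array 4. Without CD array 4 there were 4 higher calls at other probes, and without PR array 2 there were 2 in all. The 5 higher calls in FA became 2 without CD array 2, FA array 1 or FA array 4, and 3 without CD array 3, PR array 4, FA array 2 or FA array 3. By the methods' Tukey test, with p-values adjusted over all probes, 6 members were called in PR, all of them lower (10.2%, against 21.2% of all probes in either direction), and 2 were higher and 12 lower in FA (23.7%, against 25.5%). At an unadjusted p under 0.05 it was 13 in PR (22%, against 32.4%) and 21 in FA (35.6%, against 35.8%).

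**Figure D3:**
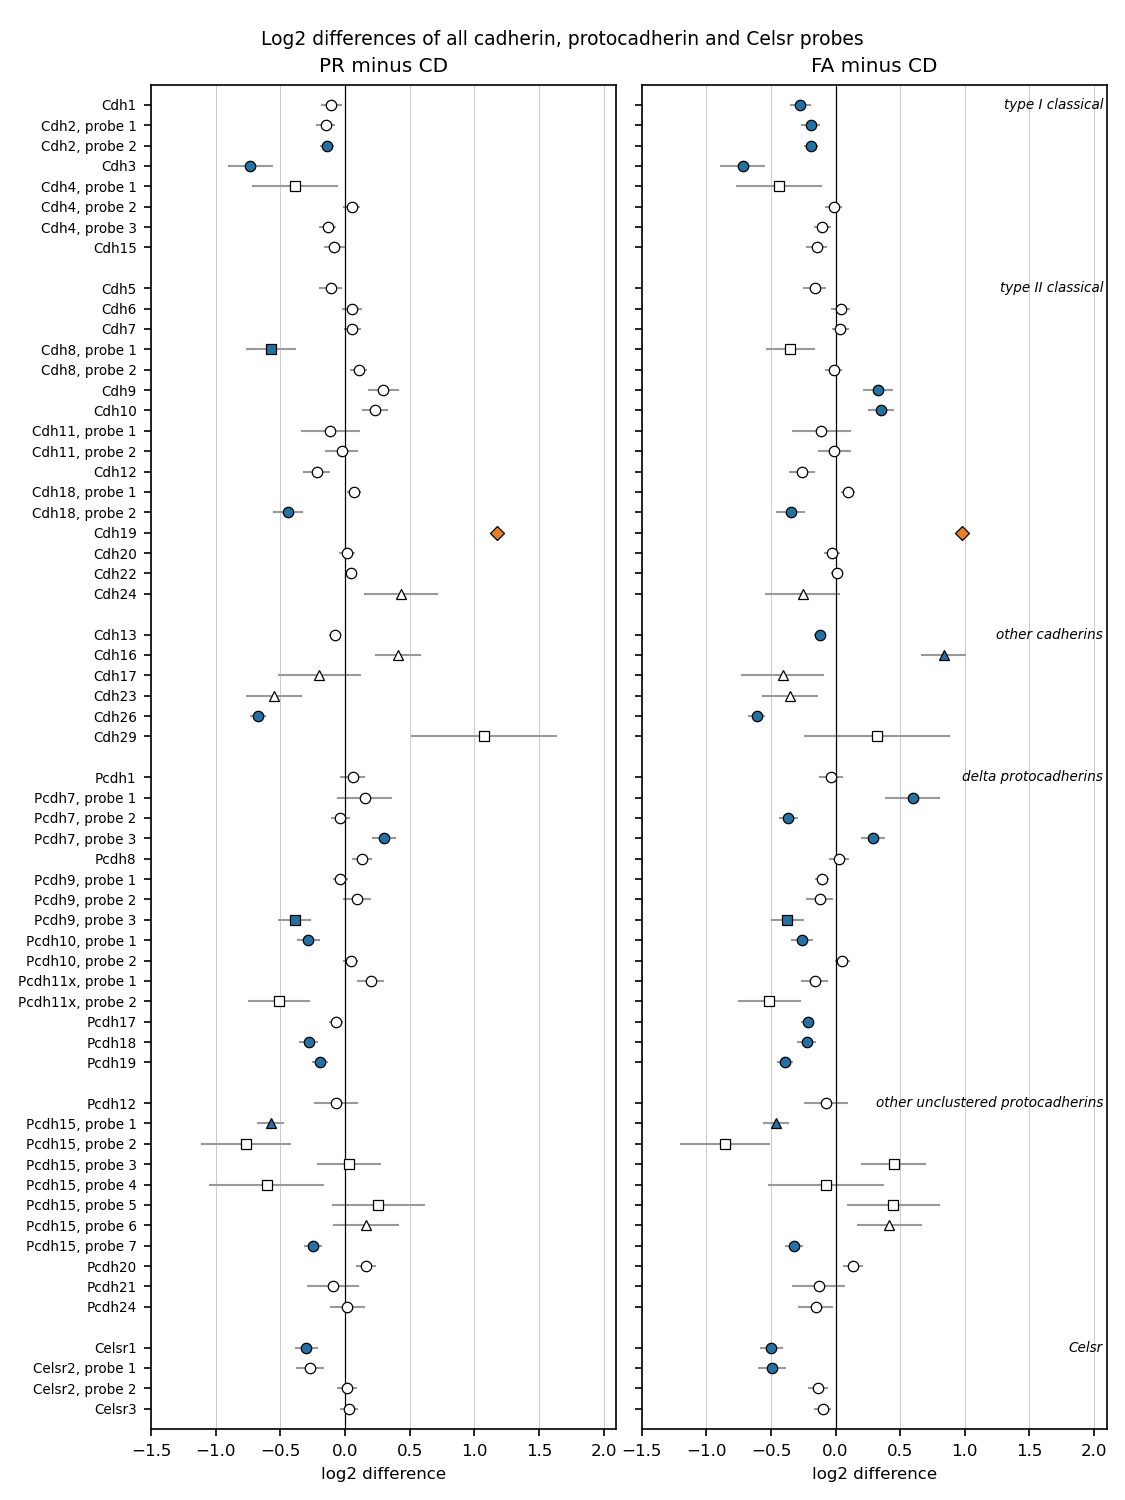
Log2 difference (horizontal axes) of each of the 60 probes by subfamily, PR minus CD on the left and FA minus CD on the right, with probes of a gene numbered along the chromosome. Filled symbols are called at an adjusted p under 0.05, open symbols are not, triangles mark probes not well above background on any array, squares those well above it on some arrays only, bars are standard errors, and the diamond is Cdh19, which was not tested. Cdh19 lies to the right of every other member at 1.18 and 0.98. It was chosen for its PR and CD values, so this place is not a result.

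Type II cadherins, to which Cdh19 belongs, mark subsets of neurons and are known from circuit formation. Of the other 15 probes for 12 genes, 2 were called in PR, both lower, and 3 in FA, of which 1 was lower and 2 were higher. Over the 13 of these probes that passed the background limit on each array, differences ran from -0.44 to 0.30 in PR and from -0.35 to 0.35 in FA. Of all probes on the array, 13.4% were called higher and 16.6% lower in PR, and 16.4% and 18% in FA. Cdh10 rose in FA by 0.35 ± 0.092 (SE, limma adjusted p = 0.0143). Its values were 9.93, 9.73, 10.05 and 10.16 in CD, 10.24, 10.12, 10.17 and 10.28 in PR, and 10.48, 10.21, 10.30 and 10.27 in FA. The FA arrays were all above the CD arrays, and the PR difference of 0.23 did not pass the test (limma adjusted p = 0.0804). Cdh9, a synaptic cadherin of hippocampal neurons, was 7.97, 7.63, 8.0 and 8.27 in CD, 8.26, 8.34, 8.17 and 8.30 in PR, and 8.24, 8.24, 8.33 and 8.38 in FA. It rose in FA by 0.33 ± 0.11 (limma adjusted p = 0.0418), 1 CD array overlapped the FA arrays, and the call was lost on leaving out any single array other than CD array 4 (adjusted p from 0.0516 to 0.0964) and after normexp correction, where the difference was 0.19 (adjusted p = 0.075).

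Cdh18 was read by a pair of probes 537436 bases apart on chromosome 15, of which 1 was called. Probes of a gene are numbered here by position on the chromosome. At probe 2 the CD values were 8.65, 8.84, 8.47 and 8.27, the PR values 8.14, 8.07, 8.20 and 8.06, and the FA values 8.18, 8.34, 8.10 and 8.23. It fell by 0.44 ± 0.11 in PR (limma adjusted p = 0.0108), where no array overlapped CD, and by 0.35 ± 0.11 in FA (0.0275), where FA array 2 reached above the lowest CD array. After normexp correction the PR fall was 0.27. The FA call was lost without CD array 1, CD array 2, FA array 1, FA array 3 or FA array 4 (adjusted p 0.0513 to 0.0734) and after normexp correction (0.0893). Probe 1 of Cdh18, whose accession matched no current symbol, differed by 0.068 in PR and 0.095 in FA and was called in neither. Probe 1 of Cdh8, well above background on 0 CD, 2 PR and 1 FA arrays, was lower in PR by limma (adjusted p = 0.0388) with no usable fold, whereas its probe 2, well above background on every array, differed by 0.10 and -0.016.

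The remaining type II genes did not pass the test. Cdh12 was just lower on every PR array (highest 10.18) than on any CD array (10.18 to 10.53), with differences of -0.22 and -0.26 (limma adjusted p = 0.112 and 0.0576). Cdh6, Cdh22 and both Cdh11 probes had differences of -0.11 to 0.053 in PR and FA. Cdh24 was not well above background on any array.

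Cdh5 encodes VE-cadherin, the adhesion molecule of the junctions between endothelial cells. It was 9.34, 9.27, 9.43 and 9.39 in CD, 9.36, 9.29, 9.04 and 9.30 in PR, and 9.03, 9.18, 9.28 and 9.29 in FA. The groups overlapped, and the differences of -0.11 ± 0.081 and -0.16 ± 0.081 did not pass the test (limma adjusted p = 0.331 and 0.149). Of 6 endothelial marker probes, 4 were higher in PR and 4 in FA, and Flt1, a receptor for VEGF, was lower in FA by 0.33. Tek, an angiopoietin receptor, rose by 0.76 and 0.88 (limma adjusted p = 0.00318 and 0.00116). The log2 of the summed intensities of the endothelial list was 15.14 to 15.20 in CD, 15.30 to 15.53 in PR and 15.33 to 15.51 in FA. Its part in the Cdh5 values was not tested.

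**Figure D4:**
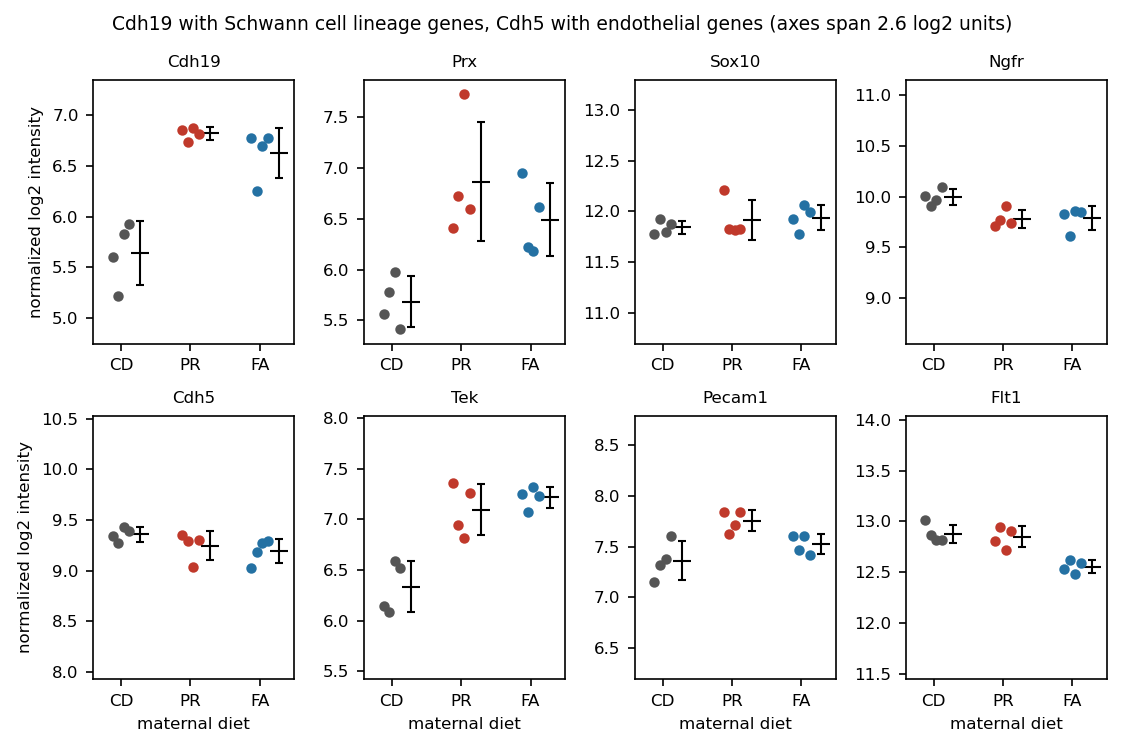
Normalized log2 intensity (vertical axes, each spanning 2.6 log2 units) by maternal diet for Cdh19 with 3 Schwann cell lineage genes (top) and for Cdh5 with 3 endothelial genes (bottom). Points are single arrays and bars are mean ± SD (n = 4). Prx is higher in PR and FA like Cdh19, Ngfr is lower, Sox10 and Cdh5 overlap between diets, and Tek is higher in PR and FA.

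Type I cadherins include N-cadherin (Cdh2), the main classical cadherin of neurons, E-cadherin (Cdh1) of epithelia, P-cadherin (Cdh3) and R-cadherin (Cdh4). Of all probes on the array, 16.6% were called lower in PR and 18% in FA, with median differences of -0.016 and -0.006. Of the 8 type I probes for 5 genes, 2 were called in PR and 4 in FA, all of them lower, with medians of -0.14 and -0.19 over the 8. Cdh3 fell most, with CD values of 6.08, 6.22, 6.31 and 5.97, PR values of 5.86, 5.24, 5.50 and 5.05, and FA values of 5.54, 5.61, 5.12 and 5.43. All PR and FA arrays were below all CD arrays, and the fall was 0.73 ± 0.17 in PR and 0.72 ± 0.17 in FA (limma adjusted p = 0.00881 and 0.00798). It stayed called under every normalization tried and without each array in turn, but after normexp correction the fall was 0.27 in PR and 0.26 in FA. Cdh1, whose probe starts 113879 bases from that of Cdh3 on chromosome 8, fell by 0.27 ± 0.074 in FA (limma adjusted p = 0.0153), from 7.42 to 7.76 on CD arrays to 7.24 to 7.37 on FA arrays, and its difference of -0.11 in PR did not pass the test.

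Cdh2 fell by small amounts. Its probe 2 was 13.72, 13.70, 13.63 and 13.70 in CD, 13.54, 13.63, 13.55 and 13.48 in PR, and 13.55, 13.55, 13.41 and 13.49 in FA. It fell by 0.14 ± 0.047 in PR and 0.19 ± 0.047 in FA (limma adjusted p = 0.0471 and 0.0104), with all PR and FA arrays below all CD arrays. Probe 1, 173 bases away, fell by 0.19 in FA (limma adjusted p = 0.0419) and differed by -0.15 in PR (0.109), and there 1 PR and 1 FA array lay within the CD range. The 3 Cdh4 probes and Cdh15, or M-cadherin, were not called, with differences of -0.44 to 0.050, the lowest at a Cdh4 probe well above background on 3 of 4 CD arrays.

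Of cadherins outside the classical types, Cdh26 had the smallest adjusted p of all 59 probes in both comparisons. It was 10.65, 10.65, 10.69 and 10.76 in CD, 10.11, 10.06, 10.003 and 9.88 in PR, and 10.06, 10.02, 10.09 and 10.14 in FA. All PR and FA arrays were below all CD arrays. The fall was 0.67 ± 0.056 in PR and 0.61 ± 0.056 in FA (limma adjusted p = 7.8e-05 and 7.2e-05), which left 0.627 and 0.655 of the CD intensity, short of the 2-fold limit of the methods. Cdh13, the membrane-anchored T-cadherin that lacks a cytoplasmic tail, fell by 0.12 ± 0.040 in FA (limma adjusted p = 0.0431). Cdh16 was called higher in FA by limma (adjusted p = 0.00347) at values not well above background on any array, so no fold is given. Cdh17 and Cdh23 were not called, and neither was Cdh29, a symbol of the array design for which no current name was found.

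Delta protocadherins are the unclustered protocadherins that share conserved motifs in their cytoplasmic tails, and several of them bind the WAVE complex that controls actin. Of 15 probes for 9 genes, 1 was higher and 4 were lower in PR, and 2 were higher and 6 lower in FA. The shares of all probes were 13.4% higher and 16.6% lower in PR, and 16.4% and 18% in FA. Pcdh19, an X-linked gene known from an epilepsy that affects mostly females, was 12.06, 11.96, 11.99 and 11.96 in CD, 11.73, 11.87, 11.81 and 11.79 in PR, and 11.70, 11.59, 11.46 and 11.65 in FA. The CD, PR and FA arrays did not overlap, in that order from high to low. It fell by 0.19 ± 0.056 in PR and 0.39 ± 0.056 in FA (limma adjusted p = 0.0242 and 4.9e-04), and the FA difference from PR of -0.20 did not pass the test (0.142).

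Other delta protocadherins were also called lower. Pcdh18 fell by 0.28 ± 0.068 in PR and 0.23 ± 0.068 in FA (limma adjusted p = 0.0106 and 0.0261), from 9.57 to 9.72 on CD arrays to 9.23 to 9.46 on PR and 9.24 to 9.50 on FA arrays. Pcdh17, which is found at synapses of the basal ganglia, fell by 0.22 ± 0.044 in FA (limma adjusted p = 0.00385), from 13.04 to 13.13 in CD to 12.84 to 12.90 in FA. Pcdh10, an adhesion molecule of axon pathways, was lower at probe 1 by 0.28 in PR and 0.26 in FA (limma adjusted p = 0.0209 and 0.0271), and probe 2, 9907 bases away, differed by 0.042 and 0.053. The PR call at probe 1 was lost without CD array 1 or 3 or PR array 1 or 4 (adjusted p 0.0564 to 0.0582). Pcdh1, Pcdh8 and both Pcdh11x probes, whose accessions matched no current symbol, were not called.

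Pcdh7 was the only gene with probes called in opposite directions. The beginnings of its 3 probes, numbered along chromosome 5, are shown because they lie within 1 gene and disagree. Probe 1 is chr5:58120201-58120260, probe 2 chr5:58520529-58520588 and probe 3 chr5:58523420-58523479 (mm9). Which transcripts of the gene each probe reads is not stated in the files.
Pcdh7 probe 1: aagttccattgcatgagaccttttagttgt
Pcdh7 probe 2: aaacaggagaatataagccatctcctgtca
Pcdh7 probe 3: taatatggggctgcttaaatatcactggac
At probe 1 the CD values were 5.92, 5.58, 5.84 and 5.44, the PR values 6.22, 5.45, 6.12 and 5.60, and the FA values 6.10, 6.74, 6.16 and 6.19. The FA arrays were above the CD arrays, by 0.60 ± 0.21 (limma adjusted p = 0.0445), and PR overlapped both. This call was lost on leaving out any single array other than CD array 1 and PR arrays 1, 2 and 3, with an adjusted p of 0.109 without FA array 2, the highest of its group, and the difference was 0.29 after normexp correction. At probe 2 the CD values were 7.74, 7.75, 7.56 and 7.58, the PR values 7.76, 7.63, 7.54 and 7.54, and the FA values 7.31, 7.34, 7.19 and 7.32. Here FA was below both other groups on every array, by 0.37 ± 0.068 from CD (limma adjusted p = 0.0023), a call that stayed under every normalization tried and without each array in turn, at a fall of 0.17 after normexp correction. At probe 3 the CD values were 9.51, 9.16, 9.33 and 9.16, the PR values 9.65, 9.54, 9.44 and 9.71, and the FA values 9.62, 9.55, 9.54 and 9.59. PR rose by 0.30 ± 0.085 and FA by 0.29 ± 0.085 (limma adjusted p = 0.0233 and 0.0236), and both calls were lost without CD array 2 or 4, the PR call without PR array 1 or 4, the FA call without FA array 1 or 4 (adjusted p 0.052 to 0.0664 over these 8) and after normexp correction (0.0607 and 0.054).

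**Figure D5:**
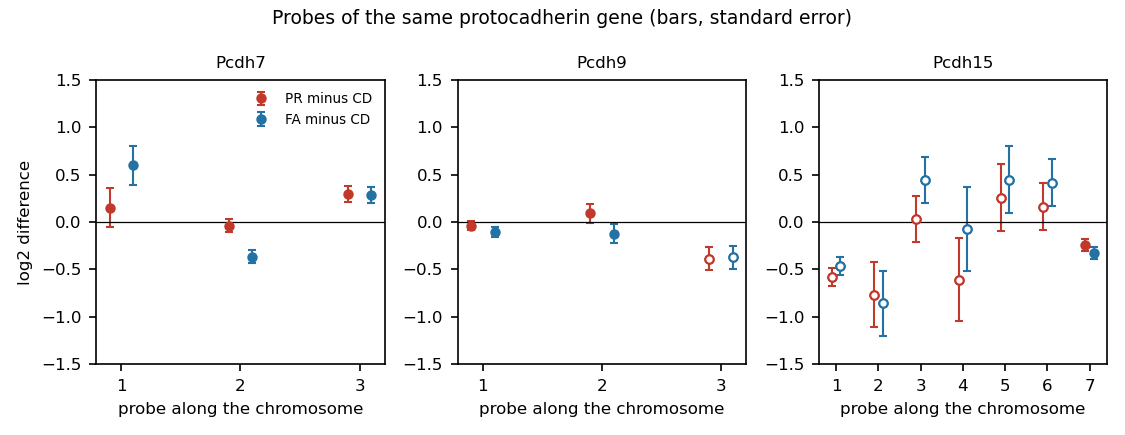
Log2 difference from CD (vertical axes) at each probe of Pcdh7, Pcdh9 and Pcdh15, in order along the chromosome (horizontal axes). Red points are PR, blue points FA, bars are standard errors, and open points are probes that were not well above background on every array. In FA, Pcdh7 lies at 0.60, -0.37 and 0.29, Pcdh9 between -0.37 and -0.10, and Pcdh15 probe 7, the only filled one of that gene, at -0.32.

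For Pcdh9, with 3 probes over 546268 bases, probe 3, not well above background on 1 CD array, fell by 0.39 in PR and 0.37 in FA (limma adjusted p = 0.0335 and 0.0358). These calls were lost when arrays were scaled to the 75th percentile (adjusted p 0.27 and 0.0914), and after normexp correction the differences were -0.046 and -0.002. They were also lost without CD array 1 or 2, the PR call without PR array 2, 3 or 4, and the FA call without CD array 4, FA array 1 or FA array 3 (adjusted p 0.0512 to 0.0902). The other probes of Pcdh9 were not called. Pcdh15, a protein of the links between hair cell stereocilia, had 7 probes over 1165530 bases. Probe 7 was 9.18, 9.11, 9.08 and 9.0 in CD, 8.72, 8.98, 8.85 and 8.83 in PR, and 8.67, 8.83, 8.78 and 8.81 in FA. It was lower on all PR and FA arrays, by 0.25 ± 0.063 and 0.32 ± 0.063 (limma adjusted p = 0.0143 and 0.00309). Probe 1 was called lower at values not well above background on any array, and 5 were not called, none of them well above background on all 4 CD arrays. Pcdh12, Pcdh20, Pcdh21 (now Cdhr1) and Pcdh24 (now Cdhr2) were not called.

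Celsr genes act with frizzled and Vangl proteins in planar cell polarity, the alignment of cells and axons within a plane. Celsr1 was 9.39, 9.56, 9.34 and 9.23 in CD, 8.96, 9.18, 9.10 and 9.08 in PR, and 8.94, 8.88, 8.73 and 8.98 in FA. It was below CD on all PR and FA arrays, by 0.30 ± 0.081 and 0.50 ± 0.081 (limma adjusted p = 0.0187 and 0.00111), and the PR call was at an adjusted p of 0.051 without PR array 1. Celsr2 at probe 1 was 11.55, 11.81, 11.43 and 11.39 in CD, 11.44, 11.23, 11.14 and 11.29 in PR, and 11.09, 11.12, 10.89 and 11.13 in FA. It fell by 0.49 ± 0.10 in FA (limma adjusted p = 0.00413), with FA below both other groups on every array, and differed by -0.27 in PR (0.0658). Its probe 2, 4416 bases away, differed by 0.013 and -0.14, and Celsr3 by 0.033 and -0.10, none of them called.

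Planar cell polarity partners on the array were 15 probes for 11 genes, all well above background on the 12 arrays. Of these 3 rose and 6 fell in PR, and 3 rose and 8 fell in FA, with medians of -0.18 and -0.26. Over all probes, 13.4% rose and 16.6% fell in PR, and 16.4% and 18% in FA, with medians of -0.016 and -0.006. The frizzled receptor Fzd3, which works with Celsr genes in axon guidance, fell by 0.72 and 0.69 (limma adjusted p = 0.0062 and 0.00646), and Prickle2 by 0.64 and 0.77 (0.00786 and 0.00237). The cytoplasmic transducers went different ways: Dvl1 rose by 0.46 and 0.50 (limma adjusted p = 6.5e-04 and 3.3e-04), and Dvl3 fell by 0.32 and 0.83 (0.0323 and 1.7e-04). The genes named in this and the next paragraph from the partner lists were picked after their values were seen.

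Catenins and other junction proteins, 21 probes for 16 genes, were called 3 higher and 4 lower in PR and 4 higher and 2 lower in FA, with medians of -0.068 and -0.086. Beta-catenin (Ctnnb1), which joins cadherin tails to alpha-catenin, differed by 0.21 and 0.17 and was not called (limma adjusted p = 0.0679 and 0.107). Neuronal alpha-catenin, Ctnna2, rose by 0.25 and 0.31 at 1 of its probes (limma adjusted p = 0.00365 and 8.4e-04), and at the other it rose by 0.15 in FA (0.0293) and differed by 0.059 in PR. Other members of the cadherin superfamily, 22 probes for 19 genes, were called 1 higher and 2 lower in PR and 3 higher and 5 lower in FA, with the FA rises of the desmogleins Dsg1b and Dsg3 at values not well above background on any array. Among them the giant cadherins Fat1 (lower by 0.38 and 0.67) and Fat4 (lower by 0.24 and 0.46) were called in both comparisons, and Clstn1, a synaptic calsyntenin, rose by 0.31 and 0.32. In the WAVE complex, 10 probes for 7 genes, 2 were called in PR, both higher, and 6 in FA, of which 2 were higher and 4 lower, with Nckap1 up by 0.77 and 0.68 (limma adjusted p = 1.5e-04 and 2.6e-04). Of 6 genes of cadherin-cleaving proteases, 1 was higher and 2 lower in PR and 1 higher and 3 lower in FA, with Mmp3 (PR and FA) and Mmp7 (FA) called lower at values not well above background on any array. Adam10, which sheds N-cadherin, fell by 0.23 in both. Over all 74 partner probes, 10 were higher and 14 lower in PR and 13 higher and 22 lower in FA. Of all probes on the array, 13.4% were higher and 16.6% lower in PR, and 16.4% and 18% in FA. The count of each partner list is to be read beside these shares.

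Folic acid in the low-protein diet was read from FA against PR. Of the 59 probes, limma called 0 higher and 0 lower, where 0.228% and 0.386% of all probes were called, and the Tukey test of the methods called 0 (against 0.0203%). At an unadjusted p under 0.05, 9 passed by limma (15.3%, against 14.1% of all probes) and 4 by the Tukey test (6.78%, against 8.4%). The smallest adjusted p was 0.0627, of Pcdh7 probe 2 (-0.33). Read array by array, PR lay wholly below CD for 13 of the 59 members (22%, against 19% of all probes) and wholly above for 0 (against 14.2%). FA lay wholly below CD for 15 (25.4%, against 19.7%) and wholly above for 5 (8.47%, against 17.1%). FA arrays lay wholly below PR arrays for 7 members (11.9%, against 4.94% of all probes) and wholly above for 0 (against 6.15%). These 7 included Pcdh19, Pcdh17, Cdh1, Celsr2 and Pcdh11x, the last at 7.55 to 7.64 in FA and 7.89 to 7.99 in PR (difference -0.36, limma adjusted p = 0.13). The median of the 59 was -0.038, and that of all probes 0.017. There was 1 lower call among the members when dim probes were removed, 1 after normexp correction and 1 without CD array 4. Of the 74 partner probes 1 was called, Dsg1b, which was higher in FA at values not well above background on any array.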

How the data were processed

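RNA of 12 whole brains (4 per maternal diet) was labelled with Cy3 and hybridized to Agilent arrays, 1 per mouse. Per the file headers, Agilent Feature Extraction 11.0.1.1 corrected each spot's intensity for background and gave flags for spots well above background. The authors deposited these spot intensities and a table of linear probe intensities normalized between arrays with the qspline function. The 11 promoter methylation samples of the series were not analysed here. No spot was saturated, and the number of arrays sets the precision.

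The log2 of the deposited normalized values was used, and the limit for calling a probe well above background was the flag on 50% or more of its spots. A limma 3.58.1 model (R 4.3.3) was fitted over the 3 groups, with Benjamini-Hochberg adjustment over all 39429 probes of a comparison. P-values measure the spread between these mice. As alternatives, the arrays were scaled to their 75th percentile or quantile normalized, and the others were normexp correction with an offset of 50, removing probes that were dim in all groups, the replicate number as a block, leaving out each array, the Tukey test of the methods, and their call limits. The scripts were tested on simulated data.

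Symbols are those of the files, and 55 of the 60 probes matched a current symbol by accession. The others were probe 1 of Cdh18, the Cdh29 probe, both Pcdh11x probes and probe 1 of Pcdh15. The members, lists and tests were chosen with earlier results of these data known. Named were Cdh19, all type II genes, the up to 8 largest called rises and falls per comparison among probes above background in at least 1 group, and genes whose probes disagree. Other members and all partner genes were named after their values were seen. A clause on the brightest and dimmest genes was dropped, because levels of different probes are not comparable. Probe sequences come from the scanner files, in mm9 coordinates. Some genes of the partner and marker lists are not reported here.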

Additional observations from a re-analysis of the deposited data

Results flagged for a closer look

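Among 28 probes in 3 diet groups (84 groups of 4 arrays), 7 groups held an array farther from the others than Dixon's critical value for the gap over the range. Chance alone marks about 1 in 20 groups. Cdh19 was 6.26 on FA array 2, where the other FA arrays were 6.69 to 6.78, and the same array was high for Pcdh7 probe 1, at 6.74 against 6.10 to 6.19. FA array 3 was low for Cdh8 probe 2 (9.35 against 9.52 to 9.53) and for Cdh22 (13.87 against 13.93 to 13.94). Pcdh9 probe 3 was 5.73 on PR array 1, against 5.37 to 5.41 on the other PR arrays. Cdh24, not well above background on any array, was 3.64 on CD array 1 against 2.68 to 2.78, and 3.37 on FA array 3 against 2.46 to 2.5.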

How the results depend on the processing

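Of 21 named differences from CD, none changed direction under any alternative. All 21 stayed past the threshold after quantile normalization and with dim probes removed, 19 after scaling to the 75th percentile and with the replicate block, and 15 after normexp correction. With single arrays left out, 47 of these calls no longer passed and 205 did. Member probes higher in PR numbered 2 after scaling to the 75th percentile, 0 after normexp correction and by the Tukey test, 0 to 4 with single arrays left out, and 2 with the replicate block. Of all 39429 probes, 6281 were higher in PR after scaling to the 75th percentile, 4691 after normexp correction and 4935 with the block. For the members, other counts also moved. Member probes lower in PR numbered 6 by the Tukey test and 7 to 12 with arrays left out. In FA, 2 were higher after normexp correction and by the Tukey test and 2 to 4 with arrays left out, and 11 to 18 were lower with arrays left out. Counts over all probes with arrays left out are not given here. At the limits of the methods all 4 of these counts were 0. In FA against PR, 1 member was lower after normexp correction and with dim probes removed, and 0 to 1 with arrays left out. Of the partner probes, 9 were lower in PR after normexp correction. In FA against PR the 1 higher partner probe became 0 under scaling to the 75th percentile, normexp correction, the replicate block and removal of dim probes, and 2 were lower after normexp correction and with dim probes removed. The Cdh19 difference was 0.49 in PR and 0.40 in FA after normexp correction, 1.03 to 1.27 and 0.84 to 1.1 with arrays left out. The causes were not tested. Replicate numbers did not pair the arrays: same-numbered arrays of different diets had correlations of their deviations of -0.063 to 0.196 (3 of 12 over 0.1), differently numbered ones -0.216 to 0.18. With the number as a block, 9 of the 59 member probes were lower in PR and 13 in FA. Of all 39429 probes, 6051 were lower in PR and 6625 in FA with the block. The calls of Pcdh10 in PR and of Pcdh7 probe 1 in FA no longer passed there (limma adjusted p = 0.0512 and 0.0683). The 4 arrays per group, the dimmer CD arrays and the 16 probes that were below background on some or all arrays limit what can be detected.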
